A study of Mus musculus with 29 samples.

Results

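EC1 is the largest of the 9 endothelial subtypes in the depositors' annotation of brain cells from a mouse stroke study. Its cells were taken as every brain cell with the parent code EC and the subtype code EC1. This gave 3126 cells, which is 41.0% of 7627 endothelial cells and 5.66% of 55268 brain cells. The other 8 subtypes held 4501 cells, from 1621 in EC2 to 30 in EC9. The whole series held 106977 brain and blood cells in 29 libraries.

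Stroke was produced by a temporary block of the middle cerebral artery in C57BL/6J mice, and controls had sham surgery. Cells were profiled by Drop-seq, in which single cells are caught in droplets with barcoded beads. Of the 18 brain libraries, 12 came from young males of 8 to 10 weeks, with 4 from sham mice at day 2, 4 from stroke mice at day 2 and 4 from stroke mice at day 14. The other 6 came from aged mice of 17 to 20 months, with 2 from sham mice at day 2 (1 male, 1 female), 3 from stroke mice at day 2 (1 male, 2 female) and 1 from stroke mice at day 14 (female). No sham library at day 14 was used, so both times in stroke mice were set against the same day 2 sham libraries. Each library pooled 4 to 5 hemispheres, ipsilateral in stroke mice by the deposited notes, and p-values therefore measure the spread between pools. Endothelial cells were sorted as CD45-negative and Ly6c-high and mixed with sorted microglia and CD45-high leukocytes, so the Ly6c gene Ly6c1 is no finding here. Papain digestion was done with actinomycin D, a blocker of transcription, in the solution.

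Brain endothelium changes along the vessel from artery to capillary to vein, and each zone carries its own genes. Capillary cells hold most of the blood-brain barrier: tight junctions seal the gaps between cells, carriers import glucose, amino acids, lipids, iron and thyroid hormone, and efflux pumps return drugs to the blood. Veins are the usual site of leukocyte adhesion. Wnt signals from the brain keep the barrier genes on.

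The 18 libraries held 41 to 365 EC1 cells each, with 16382 to 179051 summed EC1 counts. The median EC1 cell had 366 counts and 300 genes over all libraries, against 613 counts in EC2 and 576 in EC3, so EC1 was the shallowest of the 9 subtypes. By library this median ran from 273 to 855 counts in EC1 and from 324 to 1084 in the other subtypes together. Young libraries fell into 2 sets by their median mitochondrial share in EC1 cells, with 5 libraries at 0.571% to 1.24% (sham replicate 1, and replicates 1 and 2 of stroke day 2 and of stroke day 14) and 7 at 5.72% to 8.63%. This split is measured, not labelled, and shares, counts of called genes and the values of some genes are given within the sets below. Of 55174 distinct barcodes 91 were found in more than 1 library, and 7 EC1 cells carried such a barcode. Of 2 aged libraries, the male sham and the second female stroke library, the sort notes give other mixing numbers of endothelial cells, microglia and leukocytes than the rest.

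EC1 cells carried the genes that define endothelium. Levels here are CPM, the counts of a gene relative to all counts of a subtype in a library and scaled to a common total, averaged over the 12 young libraries. Cldn5, the main tight junction claudin of brain endothelium, was at 4537 ± 1273 CPM in EC1 (SD, n = 12) and 3937 ± 1152 CPM in the other subtypes together. Pecam1, an adhesion molecule of all endothelium, was at 795 ± 140 CPM in EC1 and 826 ± 126 CPM in the others. Of 16 pan-endothelial genes, 8 were higher and 8 lower in EC1, with a median log2 ratio of 0.01.

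Single defining genes of other cell types were at or near 0, while some longer marker lists were not. Over 1232876 counts of young EC1 cells, the microglial genes P2ry12, Cx3cr1 and Csf1r together summed to under 1 count, and Pdgfrb of pericytes and Cd3e of T cells to 0, which allows up to 2.43 CPM each. The macrophage lysozyme gene Lyz2 summed to 4.64 counts. The summed level of 12 microglial markers was 30.5 to 56.8 CPM per sham library, at most 53.9 CPM at day 2 and at most 245.7 CPM at day 14. That of 12 macrophage markers was 269.6 to 414 CPM in sham, 158 to 804 CPM at day 2 and 94.7 to 611 CPM at day 14. Only 1 of these markers was abundant enough to be tested, the Ly6c gene Ly6c2. Since the cells were sorted as Ly6c-high, Ly6c2 is not read as macrophage RNA. Other members that are not Ly6c genes, Fcer1g and Cd68 among them, also had counts in young sham EC1 cells. The sum without Ly6c2 is not given here, and the part of macrophage RNA in the results was not tested. The 12 mural markers summed to 249 to 850 CPM in sham, 131 to 567 CPM at day 2 and 116 to 1394 CPM at day 14, with 5 of them at 0 in young EC1 cells and 2 tested, and their part in the results was not tested. Haemoglobin genes held 0.218 ± 0.264% of EC1 counts in young sham, 0.850 ± 0.931% at day 2 and 1.52 ± 1.46% at day 14 (SD, n = 4 each), with overlapping groups and up to 3.52% in stroke day 14 replicate 2. Of 5 erythrocyte markers 4 were tested, all above 0, with a median log2 fold change of 1.94 at day 2 and 2.93 at day 14 against sham. None was called in the main edgeR fit, while all 4 were with no low-count filter, at both times. Within the low mitochondrial set, which holds 1 sham library, they were at 6.31 to 8.21 at day 14. Haemoglobin counts came mainly from 15 young EC1 cells with over 10% of their counts in haemoglobin genes, against 4 such cells in the other subtypes and none among aged EC1 cells. Counts of called genes without those cells are given below.

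Capillary genes were higher in EC1 than in the other subtypes combined, and EC3 and EC5 were also high in them. Because the clusters were made from these genes, the levels describe EC1 and were not tested. The gene lists were also chosen with earlier results of these data known. Counts of list members, here and in the next paragraphs, are therefore no independent support. All 14 capillary genes were higher in EC1 than in the other subtypes together, with a median log2 ratio of 0.82, and this median was above 0 in 12 of 12 young libraries. Over all 2143 genes of at least 100 CPM in either set the median was 0.01, with 1111 higher and 1032 lower. All 14 listed capillary genes reached that level. Of 18 listed arterial genes, low ones included, 1 was higher and 17 lower in EC1, and of 16 venous genes 2 were higher and 14 lower. The capillary median was 0.80 in the sham libraries alone, 1.46 in stroke day 2 and 0.57 in stroke day 14. These medians do not describe EC1 alone, since the other subtypes changed in makeup. EC2 was on average 5.80% of their cells in sham and 57.4% at day 2. In EC1 itself capillary genes had a median log2 fold change of -0.36 at day 2 against sham.

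**Figure D1:**
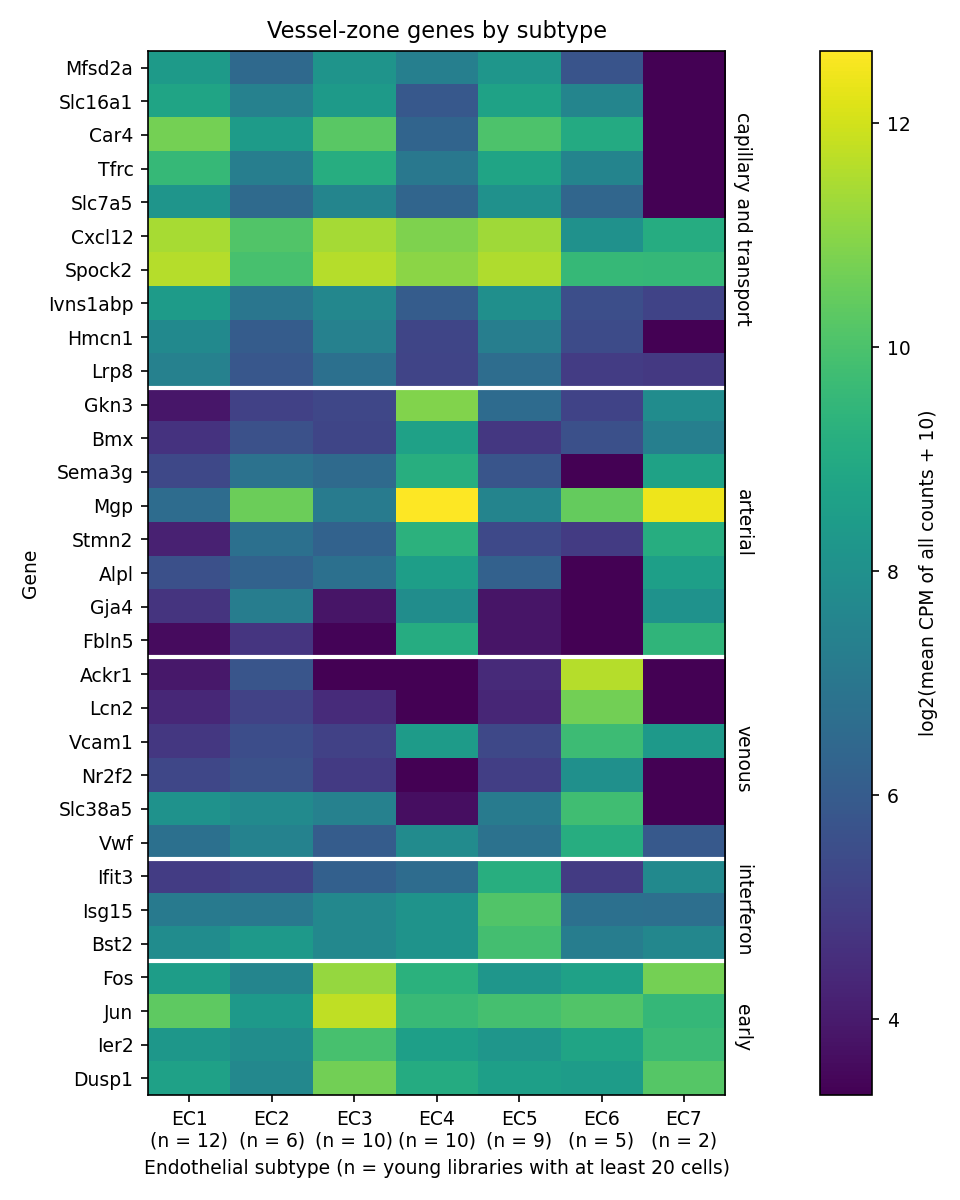
Mean level of vessel-zone and transport genes by endothelial subtype in young libraries with at least 20 cells of the subtype, as log2 of the mean CPM plus 10 (colour). Capillary and transport genes stand high in EC1, EC3 and EC5, arterial genes in EC4 and EC7 and venous genes in EC6, while EC5 is brightest for interferon genes and EC3 for early response genes.

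Car4, a carbonic anhydrase of the capillary surface, was at 1632 ± 434 CPM in EC1. It was at 1224 ± 273 CPM in EC3 and 1044 ± 388 CPM in EC5, but at 340 ± 257 CPM in EC2 and 70.6 ± 88.3 CPM in EC4. The spreads of EC1 and EC3 overlapped, while EC2 and EC4 lay below. Mfsd2a, the carrier of omega-3 lysolipids that also holds down vesicle transport across the cell, was also highest in EC1, with 325 ± 95.7 CPM in EC1, 291 ± 155 in EC5, 273 ± 103 in EC3, 154 ± 139 in EC4, 80.2 ± 101 in EC2 and 44.1 ± 45.5 in EC6. EC1, EC3 and EC5 were not apart beyond their spread for this gene. Subtypes entered with different numbers of libraries (12 for EC1, 10 for EC3 and EC4, 9 for EC5, 6 for EC2, 5 for EC6 and 2 for EC7), since at least 20 cells were required, and EC8 and EC9 reached that in none. The groups were mixed unequally too, since 4 of the 6 EC2 libraries were from stroke day 2. In those same 6 libraries EC1 was at 1450 ± 480 CPM for Car4 and 319 ± 107 CPM for Mfsd2a, each above EC2 in 6 of 6. Beside EC3, in their 10 shared libraries, EC1 was higher in 8 for Car4 and 7 for Mfsd2a.

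Of the 15 genes with the largest ratios in favour of EC1, 8 are in the capillary or transport lists, Car4 and Mfsd2a among them. Lrp8, a receptor for reelin and apolipoprotein E, led with 160 ± 85.0 CPM against 50.7 ± 26.6 CPM in the others. Ndnf, a secreted fibronectin type III protein, followed with 190 ± 78.8 against 61.3 ± 54.6 CPM. Tfrc, the transferrin receptor that brings iron into the brain, was at 751 ± 297 against 343 ± 216 CPM. The monocarboxylate carrier Slc16a1 (421 ± 223 against 202 ± 149 CPM), the large amino acid carrier subunit Slc7a5 (282 against 124 CPM) and Notum, a secreted Wnt inhibitor and target (202 against 99.8 CPM), were also among the first 15 by ratio. The others were Ivns1abp, Cdkn2b, Hmcn1, Ddc, Car5a, Tiam1 and Rab11fip1. Each of the 15 was higher in EC1 in at least 11 of the 12 libraries.

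Of all 24 listed transport genes 21 were higher in EC1 and 3 lower, and 21 of the 24 reached 100 CPM. The efflux pump Abcb1a, which encodes P-glycoprotein, was at 2357 ± 866 CPM in EC1 and 1515 ± 749 CPM in the others, higher in 12 of 12 libraries. The organic anion carrier Slco1a4 was at 3438 ± 1029 against 2279 ± 1035 CPM, also higher in 12 of 12. The 2 lower at that level were the taurine carrier Slc6a6 (749 against 943 CPM) and the zinc exporter Slc30a1 (232 against 250 CPM). Slc2a1, the glucose carrier of the barrier, was at 1267 against 1086 CPM and was higher in 8 of 12 libraries. Of 14 junction genes 10 were higher and 4 lower, and of 20 Wnt pathway genes 16 were higher and 4 lower. The 7 caveolae genes had 3 higher and 4 lower, with a median of -0.03, which was 0.10 over pooled cells and 0.05 in cells of at least 500 counts.

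Of the 10 genes lowest in EC1 by ratio, 6 were arterial, 2 (Plvap and Igfbp3) fenestrated, 1 venous (Ackr1) and 1 an interferon gene (Ifit3). Gkn3, an arterial gene of brain endothelium, was at 4.65 ± 8.51 CPM in EC1 and 1885 ± 957 CPM in EC4. Bmx, an arterial tyrosine kinase, was at 15.7 ± 17.6 against 395 ± 192 CPM in EC4. Mgp, the matrix Gla protein, was at 89.4 ± 150 CPM in EC1, 6397 ± 3492 in EC4, 5398 ± 857 in EC7 and 1497 ± 624 in EC2. The remaining arterial genes in this set, Clu, Stmn2 and Sema3g, also had their highest levels in EC4 or EC7. The venous chemokine receptor Ackr1 was at 5.16 ± 13.7 CPM in EC1 and 3121 ± 1572 CPM in EC6. Vcam1, a ligand for leukocyte integrins, was at 18.5 ± 22.1 against 824 ± 416 CPM in EC6, and of all 16 adhesion and inflammation genes 2 were higher and 14 lower in EC1. Plvap, the diaphragm protein of fenestrated vessels, was at 5.42 ± 14.0 CPM in EC1 and 158 ± 222 CPM in the others together.

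EC3 and EC5, which were near EC1 in Mfsd2a, were far from it in some other genes. Fos, an early response transcription factor, was at 358 ± 223 CPM in EC1 and 2289 ± 821 CPM in EC3. Jun was at 1286 ± 743 against 3409 ± 1247 CPM in EC3. All 12 early response genes were lower in EC1 than in the other subtypes together (median -1.18). The interferon-induced gene Ifit3 was at 21.6 ± 18.1 CPM in EC1 and 561 ± 264 CPM in EC5, and Isg15, a ubiquitin-like interferon product, was at 131 ± 78.4 against 1094 ± 262 CPM in EC5. All 16 listed interferon genes were lower in EC1 than in the others together, as were all 14 class I antigen presentation genes.

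EC1 made up a smaller part of the endothelial cells at day 2 after stroke than in sham mice. The codes come from the same expression data, so the shares describe and were not tested. In the 4 young sham libraries EC1 was 47.4%, 58.0%, 67.3% and 67.8% of endothelial cells (mean 60.1 ± 9.59%). In the 4 stroke day 2 libraries it was 19.4%, 19.4%, 26.3% and 27.8% (23.2 ± 4.42%). Every day 2 library lay below every sham library. At day 14 it was 38.3%, 36.7%, 30.7% and 59.9% (41.4 ± 12.8%), which overlapped with sham but not with day 2. Within the 5 libraries of low mitochondrial share EC1 was 47.4% in the single sham library, 19.4% at day 2 and 37.5% at day 14. Within the other 7 it was 64.4% (n = 3), 27.0% (n = 2) and 45.3% (n = 2).

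**Figure D2:**
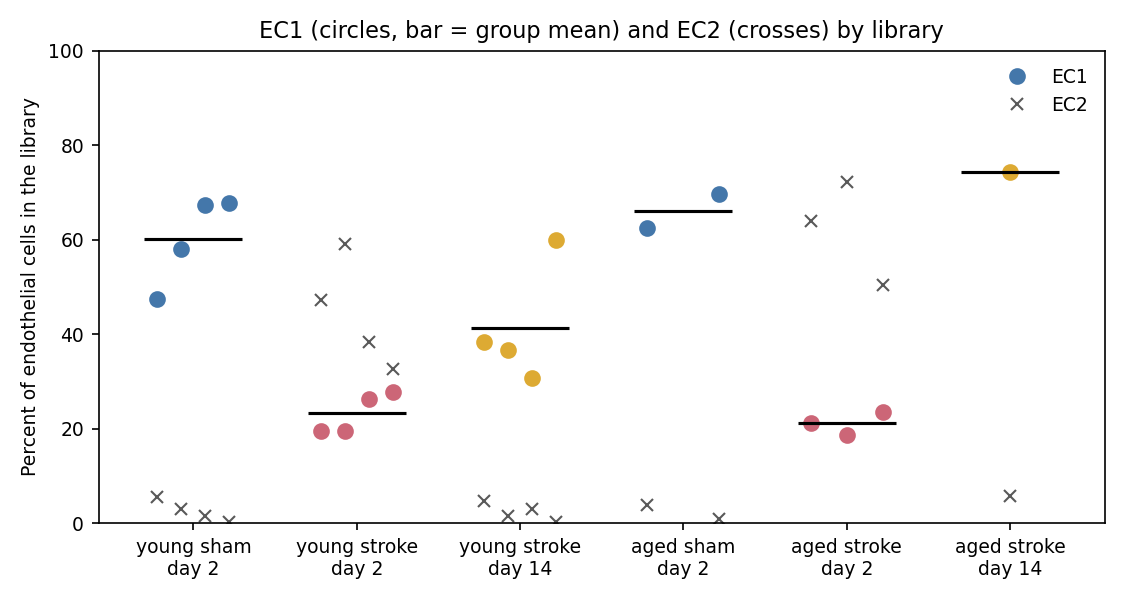
EC1 (circles) and EC2 (crosses) as a percent of the endothelial cells of each library, by group, with the EC1 mean of the group (horizontal line). In young and aged stroke libraries at day 2 EC1 lies between 18.7% and 27.8%, below all sham libraries of both ages.

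EC2 was the largest subtype at day 2 on average. It was 2.58 ± 2.21% of endothelial cells in young sham libraries, 44.4 ± 11.5% at day 2 and 2.41 ± 1.91% at day 14. EC3 was 9.97 ± 4.38% in sham, 8.20 ± 4.98% at day 2 and 28.6 ± 6.28% at day 14. A cell that takes on another profile can take on another code, and cells lost from EC1 cannot be told apart from cells coded EC2 or EC3 instead. Shares also depend on the sort and on how many cells of each subtype survive it. In aged mice EC1 was also lower at day 2, at 62.4% and 69.7% in the 2 sham libraries and 21.2%, 18.7% and 23.5% in the 3 stroke libraries at day 2. EC2 was 62.2 ± 10.9% of the aged stroke cells at day 2. The single aged library at day 14 had 131 EC1 cells of 176, or 74.4% (95% Wilson interval 67.5% to 80.3%, counting error only). Among cells of at least 500 counts it was at 50% (9 of 18 cells), beside 52.6% and 50.8% in the aged sham libraries, so its place relative to sham turned with that limit. EC3 was 5.13 ± 0.721% in aged sham, 2.54 ± 2.20% at day 2 and 2.84% in that library, and no test was made with 1 library.

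Few genes of EC1 passed the test at day 2 after stroke. The codes come from the same expression data, so this test covers only the cells still coded EC1 at day 2. Of the named genes 7 were higher, Ecscr by the most and Ifitm3 among them, and 5 were lower, led by the zinc exporter Slc30a1 and the receptor Igf1r. Counts of EC1 cells were summed per library and tested with the quasi-likelihood test of edgeR over 2174 genes, with Benjamini-Hochberg adjustment and a gene called at an adjusted p under 0.05. Here 13 genes were called (0.598%), 8 higher (0.368%) and 5 lower (0.23%), and 458 had an unadjusted p under 0.05 (21.1%). CPM from here on are relative to the summed counts of the genes tested, with TMM factors, and are not on the scale used for subtypes above.

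Ecscr, an endothelial surface protein that tunes growth factor signals, had the largest increase among the called genes. It was at 217, 157, 111 and 106 CPM in the sham libraries, at 804, 383, 743 and 479 CPM at day 2 and at 205, 190, 137 and 152 CPM at day 14. All day 2 libraries lay above all others. The log2 fold change at day 2 was 1.96 (SE 0.29, edgeR adjusted p = 0.0064). Within the sets of low and high mitochondrial share it was 1.52 and 2.23.

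Ifitm3, an interferon-induced membrane protein that blocks virus entry, was the only called gene of the 6 interferon genes tested, where 0.368% of all genes were called higher. It was at 1115, 795, 758 and 786 CPM in sham and at 3140, 1774, 2730 and 2012 CPM at day 2, with no overlap. Its log2 fold change was 1.48 (SE 0.27, edgeR adjusted p = 0.022). The median over the 6 interferon genes was 0.22, against 0.02 over all genes.

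Xbp1, a transcription factor of the unfolded protein response, was at 160, 231, 148 and 128 CPM in sham and at 444, 348, 526 and 488 CPM at day 2. The rise was 1.41 on the log2 scale (SE 0.27, edgeR adjusted p = 0.022). Dad1, a subunit of the enzyme that attaches sugars to proteins in the endoplasmic reticulum, rose from a mean of 170 ± 49.2 to 478 ± 145 CPM (log2 fold change 1.48). Slc35b1, which carries ATP into the endoplasmic reticulum, rose from 108 ± 19.1 to 275 ± 68.1 CPM (1.37), a call lost in 17 of 26 alternative runs. Fkbp1a, a prolyl isomerase that binds the drug FK506, rose from 390 ± 73.0 to 1022 ± 346 CPM (1.38), and Ndufab1, the acyl carrier protein of mitochondria, from 94.6 ± 30.2 to 268 ± 44.9 CPM (1.49). The edgeR adjusted p of these 4 genes was 0.022 to 0.041. The eighth higher gene, Rps2, encodes a ribosomal protein and falls outside the naming rule. It had a log2 fold change of 1.82 and is uncertain, since copies of ribosomal protein genes can share reads.

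Slc30a1, which exports zinc from the cell, fell. It was at 305, 490, 518 and 340 CPM in sham, at 116, 139, 128 and 174 CPM at day 2 and at 468, 285, 343 and 457 CPM at day 14. The groups at day 2 did not overlap with either other group, and the log2 fold change was -1.53 (SE 0.28, edgeR adjusted p = 0.022). Igf1r, the receptor for insulin-like growth factor, was at 1965, 1951, 2145 and 2146 CPM in sham and at 835, 1044, 590 and 688 CPM at day 2 (-1.39, SE 0.27, edgeR adjusted p = 0.022).

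Ptprg, a receptor tyrosine phosphatase, fell from 1133 ± 206 to 449 ± 52.7 CPM (log2 fold change -1.35), and Dlc1, a GTPase-activating protein, from 404 ± 81.9 to 165 ± 39.0 CPM (-1.33), at edgeR adjusted p of 0.022 and 0.034. Cxcl12, the chemokine that binds Cxcr4, was the most abundant called gene. It was at 3762, 4587, 6159 and 5100 CPM in sham, at 1533, 2644, 2295 and 2230 CPM at day 2 and at 3620, 3653, 4094 and 4393 CPM at day 14. Its log2 fold change was -1.17 (SE 0.26, edgeR adjusted p = 0.049), the closest of the 12 named genes to the threshold. The Cxcl12 call was lost in 15 of 26 alternative runs, beside 2 of 26 for Ecscr.

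**Figure D3:**
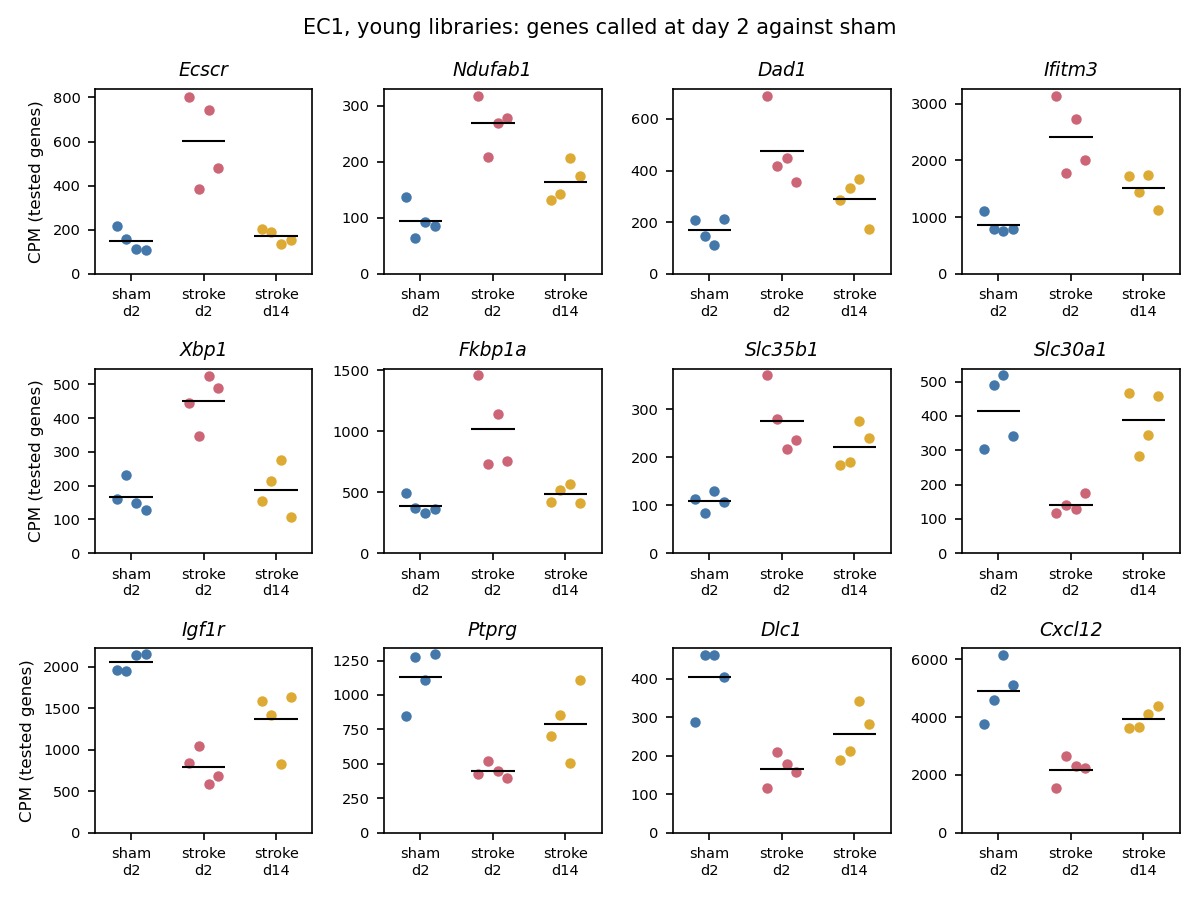
EC1 levels of the 12 genes named at day 2, in CPM of the genes tested on linear axes from 0, for each young library (points, coloured by group) with the group mean (line). For each gene all 4 day 2 libraries lie on one side of all 4 sham libraries, as the naming rule required.

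The number of called genes depended on single libraries. It was 165 without sham replicate 1, 0 without sham replicate 2, 3 without sham replicate 4, and 1 without sham replicate 3, stroke replicate 1 or stroke replicate 3. Sham replicate 1 was the only sham library of low mitochondrial share, and all 13 genes were among the 165 called without it. The fit within the 7 libraries of high mitochondrial share called 40 genes, with 10 of the 13 among them, and that within the other 5, with 1 sham library assumed to vary like the rest, also called 40, with 0 of the 13 among them. All 12 named genes had the same direction in both sets. The naming rule required groups that did not overlap, so this was nearly fixed in advance. Log2 fold changes were smaller in the low set than in the high set, as for Ndufab1 (0.98 against 1.85) and Cxcl12 (-0.92 against -1.18). The exceptions were Dad1 (1.44 against 1.41) and Slc35b1 (1.54 against 1.19). Without the haemoglobin-rich cells the count was 13.

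Of 24 barrier transport genes listed, 21 could be tested in EC1 at day 2 and 1 was called (Slc30a1, lower, where 0.23% of all genes were called lower). In 5 members the day 2 libraries lay below all sham libraries (5.06% of all genes) and in 0 above (5.15% of all genes). The median log2 fold change was -0.37, with 16 of 21 below 0 (49.3% of all genes), against 0.02 over all 2174 genes. Abcb1a was at 2960, 3958, 4975 and 5100 CPM in sham and at 1311, 2853, 1769 and 1951 CPM at day 2 (log2 fold change -1.12, SE 0.29, edgeR adjusted p = 0.066). Slco1a4 was at 4909 to 6439 CPM in sham and 1967 to 3618 CPM at day 2 (-0.87, adjusted p = 0.093 by edgeR). The basic amino acid carrier Slc7a1 (-1.05) and the zinc importer Slc39a10 (-0.81) were the other members with groups that did not overlap, each at an edgeR adjusted p of 0.08. DESeq2 called Abcb1a (adjusted p = 0.0091), Slco1a4 (0.021) and Slc39a10 (0.017) lower. Values near 0 were measured for Slc2a1 (0.08) and Mfsd2a (-0.18).

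**Figure D4:**
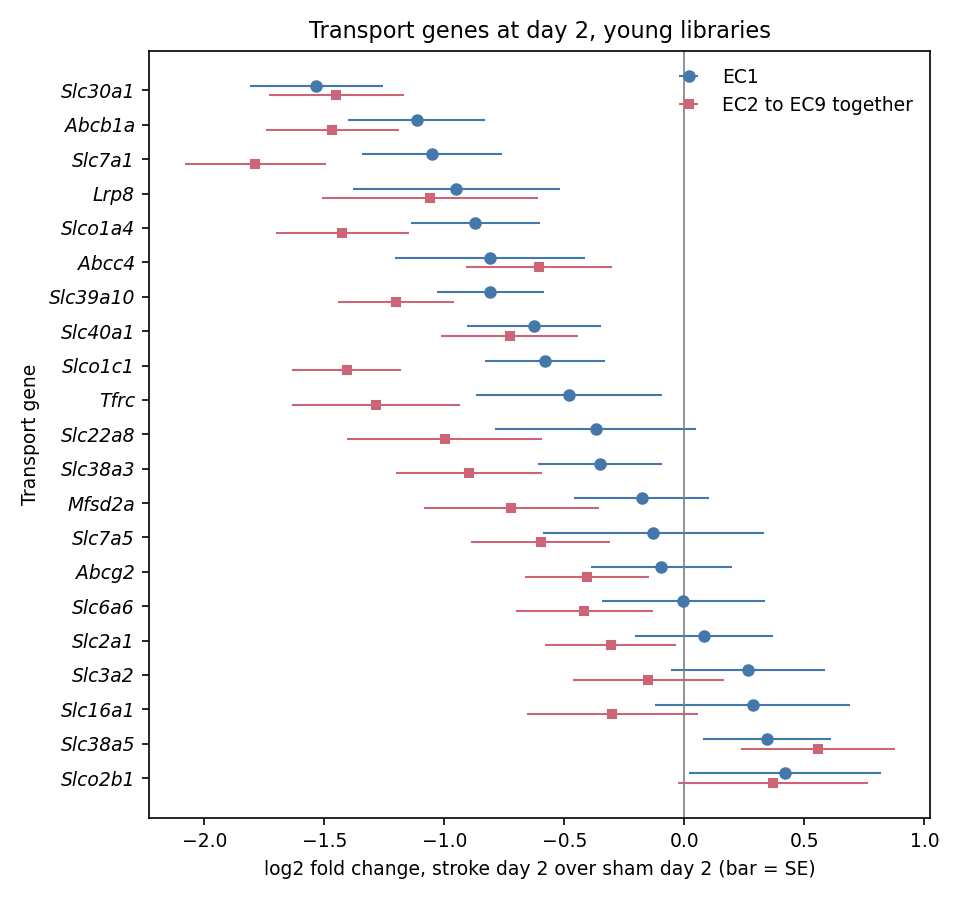
Log2 fold change at day 2 after stroke against sham for transport genes in EC1 and in the other endothelial subtypes together, with standard errors (bars), in the order of the EC1 value. The median is -0.37 in EC1 and -0.73 in the others, and the difference was not tested.

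Of 14 capillary genes 1 was called at day 2, Cxcl12, lower, with a median of -0.36, beside 0.598% of all genes called in either direction and a median of 0.02. Spock2, a secreted matrix proteoglycan in that list, was at 4596, 4948, 6066 and 5185 CPM in sham and at 2094, 2470, 3371 and 2831 CPM at day 2 without passing the test (-0.95, edgeR adjusted p = 0.072), and DESeq2 called it lower (adjusted p = 0.0033). By edgeR, of 12 junction genes tested 0 were called (median -0.22), and Cldn5 was at 3188 to 7852 CPM in sham and 4177 to 6952 CPM at day 2 (0.15, SE 0.31). Of 9 Wnt pathway genes tested 0 were called (median -0.53, 8 below 0). Of 8 basement membrane genes edgeR called 0 (median 0.28, 4 above 0 and 4 below). DESeq2 called Sparc higher (1.07, adjusted p = 0.015), and edgeR with no low-count filter called Col4a1 (1.37) and Col4a2 (1.34) higher. Lamb2 was called lower without sham replicate 1 (-1.21, edgeR adjusted p = 0.048). Of 5 caveolae genes edgeR called 0 (median -0.10), of 9 early response genes 0 (median -0.38) and of 5 class I genes 0 (median 0.12). Alternative edgeR runs called some of these lower. They were H2-T23 with the mitochondrial set as a term (-1.16, edgeR adjusted p = 0.046) and Jund within the high set (-1.52, edgeR adjusted p = 0.037). Without sham replicate 1, Jun was also called (-1.51, edgeR adjusted p = 0.039).

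Leukocyte adhesion genes were mostly too low in EC1 to be tested, with 3 of 16 in the fit and 0 called by edgeR, beside 0.598% of all genes, so that the 0 says little of 3 members. The TNF receptor Tnfrsf1a had day 2 libraries above all sham libraries, with means of 187 and 56.5 CPM, but missed the threshold (log2 fold change 1.61, edgeR adjusted p = 0.072). Among the untested, mean levels over libraries, relative to all EC1 counts, were 29.2, 67.5 and 52.6 CPM for Icam1 in sham, day 2 and day 14. For Vcam1 they were 17.5, 13.0 and 25.2 CPM. These rest on 14.3, 18.5 and 16.3 summed counts of Icam1 and 9.86, 3.97 and 9.91 of Vcam1. Sele, the endothelial selectin, had 0 counts in the young EC1 cells, which allows up to 2.43 CPM.

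The other endothelial subtypes, tested in the same way with the same libraries, had more calls at day 2, with 499 of 4369 genes (11.4%). That count was 196, 204 and 300 without sham replicates 2, 3 and 4, and 292 without stroke replicate 4. After thinning their counts to the EC1 total in libraries where they exceeded it, 331 of 2035 were called (16.3%). Sham replicates 2, 3 and 4 and day 14 replicate 4 were already below the EC1 total and were not thinned. With EC2 left out 12 of 3449 were called (0.348%), beside 0.598% in EC1. In the other subtypes 8 of 23 transport genes were called lower (5.91% of all genes there, median -0.73), as were 4 of 14 capillary genes (median -0.72), 6 of 16 Wnt pathway genes (median -0.86) and 1 of 12 junction genes (median -0.27), against a median of -0.01 over all their genes. Ecscr had a log2 fold change of 1.94 there, Slc30a1 -1.45, Ifitm3 1.13, Igf1r -1.99 and Fkbp1a 2.15. Ndufab1 (0.67) and Dad1 (0.77) did not pass the test there. No test was made of a difference between EC1 and the rest, which share libraries and whose makeup of subtypes differed between the groups. A cell that takes on another profile can be coded into the rest, so fewer calls in EC1 are not read as a weaker response.

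No gene of EC1 was called at day 14 against day 2 sham, by edgeR (0% of 2174) or by DESeq2, and 121 had an unadjusted p under 0.05 (5.57%) in edgeR. Interferon genes stood above sham in most day 14 libraries without passing the test. Of 6 tested, all had a log2 fold change above 0 (51.4% of all genes) with a median of 0.92, and 5 had day 14 libraries above all sham libraries (2.07% of all genes did), against a median of 0.02 over all genes. Gbp3, an interferon-induced GTPase, was at 144, 166, 259 and 170 CPM in sham and at 490, 451, 389 and 391 CPM at day 14 (1.28, SE 0.32, edgeR adjusted p = 0.59). Isg15 was the member with overlap, since day 14 replicate 2 was at 71.2 CPM while the others were at 320 to 351. In the other subtypes all 16 interferon genes were above 0 (51.9% of all genes there) with a median of 1.04 and 0 called (0% of 4369).

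Class I antigen presentation genes had the same direction at day 14, with 5 of 5 tested above 0 (51.4% of all genes were, median 0.56) and 2 with day 14 libraries above all sham libraries (2.07% of all genes). B2m, the light chain of class I molecules, was at 2470, 1850, 1683 and 1828 CPM in sham and at 4958, 3771, 4002 and 2544 CPM at day 14 (0.96, SE 0.26, edgeR adjusted p = 0.68). Transport genes had a median of 0.15 and capillary genes of 0.23, with 0 called in either. The day 2 and day 14 comparisons share the sham libraries.

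Between the 2 stroke times EC1 had 21 called genes of 2174 (0.966%), 7 higher at day 14 (0.322%) and 14 lower (0.644%), and 405 had an unadjusted p under 0.05 (18.6%). This comparison shares the day 2 libraries with the one against sham. The largest falls were in Scgb3a1, a secretoglobin, and Tmem252, a small membrane protein. Scgb3a1 was at 603, 1009, 564 and 836 CPM at day 2 and at 87.7, 71.2, 91.5 and 152 CPM at day 14, with sham at 241, 444, 185 and 468 CPM. Its log2 fold change between the times was -2.88 (SE 0.36, edgeR adjusted p = 0.00068). Day 14 libraries lay below all sham libraries as well. Tmem252 was at 2147, 1357, 1205 and 1307 CPM at day 2 and at 146, 142, 252 and 326 CPM at day 14 (-2.84, SE 0.44, edgeR adjusted p = 0.0056), with sham at 203 to 1147 CPM.

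Others that fell were Anxa2, a calcium-dependent membrane protein (1151 ± 467 to 319 ± 103 CPM), Ctla2a, an inhibitor of cathepsin L (3772 ± 1260 to 1295 ± 373 CPM), the kinase Pim3 (573 ± 135 to 193 ± 36.8 CPM) and the stress gene Gadd45g (226 ± 77.4 to 59.0 ± 43.9 CPM). Cd200, which restrains myeloid cells through its receptor, was at 1148 to 1308 CPM in the day 2 libraries and 356 to 617 CPM at day 14 (log2 fold change -1.38, edgeR adjusted p = 0.0067). Ecscr (-1.80) and Xbp1 (-1.34), both higher at day 2 than in sham, were also called lower at day 14 than at day 2. Esd (-1.93) and Atp5mpl (-1.23), an esterase and a small subunit of the ATP synthase, complete the 11 named. The Esd call was lost in 13 of 26 alternative runs. Outside the naming rule were the ribosomal gene Rps2 (-1.75) and the calcium-binding S100a11 (-2.07), which another brain cell type held at over 10 times the EC1 level.

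Genes higher at day 14 than at day 2 included 2 of the EC1 genes named above for their ratio to other subtypes. Ndnf rose from 164 ± 46.4 to 369 ± 72.3 CPM (log2 fold change 1.29, SE 0.29, edgeR adjusted p = 0.043). Its call was lost with replicate number as a block over all young groups, sham included (1.32, edgeR adjusted p = 0.072). Ivns1abp, a kelch protein of the capillary list, rose from 283 ± 74.0 to 643 ± 119 CPM (1.22, SE 0.28, adjusted p = 0.043 by edgeR). Over 26 alternative runs the Ndnf call was lost in 15 and the Ivns1abp call in 14. Ltbp4, which holds latent TGF-beta in the matrix, was at 180, 174, 115 and 105 CPM at day 2 and at 497, 546, 412 and 348 CPM at day 14 (1.71, SE 0.28, edgeR adjusted p = 0.0067). Gbp7, an interferon-induced guanylate-binding protein, was at 148, 174, 154 and 139 CPM at day 2, at 439, 569, 297 and 348 CPM at day 14 and at 233 to 351 CPM in sham (1.46, SE 0.27, edgeR adjusted p = 0.011). Slc30a1 rose by 1.49 on this scale, to a mean of 388 ± 89.1 CPM beside 413 ± 106 CPM in sham. Jun missed the threshold in the unpaired edgeR fit (1.46, adjusted p = 0.11). It was called with that block (1.51, adjusted p = 0.026 by edgeR), by DESeq2 (1.46, adjusted p = 0.030) and by edgeR with no low-count filter (1.37, adjusted p = 0.041). Esyt2, a tether of the endoplasmic reticulum to the cell membrane, rose by 1.66 and the vitamin B6 kinase Pdxk by 1.52.

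**Figure D5:**
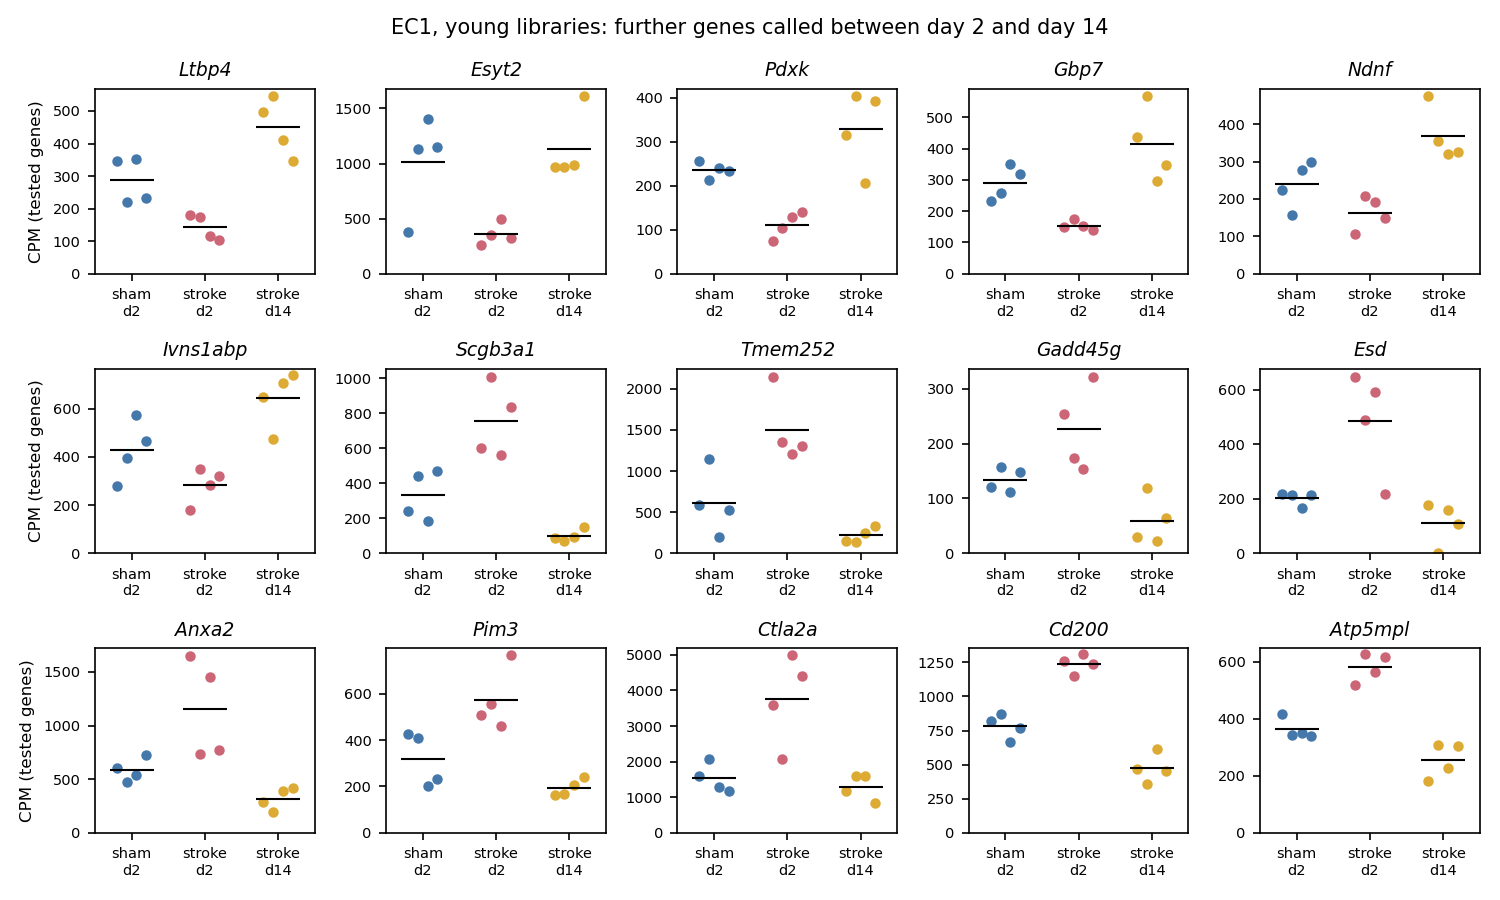
EC1 levels of the 15 genes named between stroke day 2 and day 14 but not at day 2 against sham, in CPM of the genes tested on linear axes from 0, for each young library (points, coloured by group) with the group mean (line). Scgb3a1 at day 14 lies below day 2 and below sham in every library.

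Slc30a1 was the only gene called lower at day 2 and then higher at day 14, so its promoter is shown. The window is the 250 bases upstream of the RefSeq start (build GRCm38.p6, the mm10 genome), chr1:191906531-191906780, plus strand, 5′ to 3′. Capitals mark the core of the metal response element, TGCACNC, which matched on the other strand 43 to 37 bases before the start:
Slc30a1: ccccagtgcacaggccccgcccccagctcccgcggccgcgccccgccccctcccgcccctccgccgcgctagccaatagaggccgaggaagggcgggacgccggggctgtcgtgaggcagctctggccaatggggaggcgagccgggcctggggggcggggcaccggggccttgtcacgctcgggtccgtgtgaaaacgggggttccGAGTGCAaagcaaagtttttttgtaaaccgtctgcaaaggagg
Both strands were searched, also for a second form of the core, TGCGCNC, which was not in this window. Of 32851 promoter windows of this length 10.4% hold TGCACNC and 12.5% hold TGCGCNC, so the match is a description only.

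By list, transport genes had a median log2 fold change of 0.63 from day 2 to day 14, with 8 of 21 apart and higher (4.51% of all genes were), 1 apart and lower (5.15% of all genes) and 1 called (Slc30a1). Capillary genes had a median of 0.62, with 6 of 14 apart and higher, 1 apart and lower (Slc2a1, at -0.63) and 1 called by edgeR (Ivns1abp), against 0.01 over all genes. DESeq2 also called the capillary genes Cxcl12 (0.86, adjusted p = 0.021) and Spock2 (0.81, adjusted p = 0.016) higher. The other subtypes had 688 called genes of 4369 (15.7%), or 380 of 2035 after the same thinning (18.7%) and 20 of 3449 without EC2 (0.58%). The 688 became 361, 331 and 365 without day 14 replicates 1, 2 and 4, and 422 without day 2 replicate 4. Their transport median was 1.20 with 13 of 23 called higher (8.58% of all genes there). Scgb3a1 and Tmem252 had log2 fold changes of -1.63 and -1.99 there, and Gadd45g -0.15. Leaving out single EC1 libraries gave 6 calls without day 14 replicate 1 and 12 without day 14 replicate 4, day 2 replicate 1 or day 2 replicate 3. The fit within the 4 stroke libraries of high mitochondrial share called 0 and that within the 4 of low share 25, with 8 of the 21 among them. Without the haemoglobin-rich cells there were 25 calls.

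In aged EC1 cells no gene was called at day 2 against sham, by edgeR (0% of 2476) or by DESeq2, with 101 at an unadjusted p under 0.05 (4.08%) in edgeR. Only 158 aged EC1 cells came from the 3 stroke libraries, against 531 from the 2 sham libraries. Cxcl12 was at 5756 and 5782 CPM in aged sham and at 2493, 3734 and 2678 CPM in aged stroke libraries (log2 fold change -0.97, SE 0.35), beside -1.17 in young mice. Ifitm3 was at 1177 and 1278 against 1454, 1344 and 1726 CPM (0.30, SE 0.36), and Slc30a1 at 425 and 365 against 381, 224 and 119 CPM (-0.60, SE 0.44). Of the 12 genes named at day 2 in young mice, 7 had the young sign in aged mice and 5 the opposite one, which were Dad1 (-0.44), Xbp1 (-0.07), Igf1r, Ptprg and Dlc1 (0.17 each). Igf1r was at 1167 and 1867 against 1454, 3062 and 655 CPM, with wide overlap. Slco1a4 was at 3231 and 3713 against 5367, 5377 and 3868 CPM (0.49, SE 0.35), where the young value was -0.87. The test of the difference between ages called 0 of 2476 genes in edgeR, with 203 at an unadjusted p under 0.05 and a smallest adjusted p of 0.464. With sex as a term in the fit, 0 aged genes were called. All young mice were male, and the part of sex in the comparison of ages was not tested.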

How the data were processed

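Drop-seq tables of the 18 brain libraries were used, 1 table per library. Per the labels and the deposited tables, values are expected counts per gene and cell, not whole numbers. The submitters' processing notes name Seurat and mm10, and the aligner, the counting and the step that made counts fractional are not given in the sources used here. The deposited metadata give a percent of mitochondrial counts per cell and the cell codes. There were 19704 genes in each young and 27514 in each aged table, by symbol.

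The members and gene lists were chosen with earlier results of these data known. All EC1 cells were kept. Counts were summed per library, rounded and fitted with edgeR 4.0.16 (R 4.3.3) with TMM scaling, filterByExpr, the quasi-likelihood test and Benjamini-Hochberg adjustment, two-sided. Young fits held the 3 young groups, the aged fit the 4 day 2 groups of both ages. DESeq2 1.42.0 was an alternative. Summed young EC1 counts per library were 39378 to 180032. Simulated day 2 data over 2066 genes recovered 29.2% of genes changed 2-fold, 84.8% of 4-fold and 94.2% of 8-fold changes, with 1.42% false calls. The simulation changed 200 genes, all of at least 20 CPM, and held no mitochondrial split. Its rates may therefore not carry over to the real fit. Named genes were, per comparison, up to 12 called genes each way with a mean of at least 20 CPM and groups apart, without ribosomal protein, haemoglobin or predicted genes and genes over 10 times higher in another brain cell type. Some genes are not reported here. Against other subtypes they were the 15 highest and 10 lowest ratios among genes of at least 100 CPM, with the same exclusions. Doublets were sought with Scrublet in scanpy 1.11.5. It marked at most 0.225% of cells in a library and did not work, so leaving out the top 5% of its scores was added.

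Same-numbered libraries of stroke day 2 and day 14 deviated together (r = 0.18 to 0.55 over 4 pairs). Each of these pairs also lay within the same mitochondrial set. Other-numbered pairs of these times within the same set had lower r, of -0.04 to 0.18. The main fit between these times took no account of replicate number. No label used here gives a pairing. Same-numbered libraries of sham and stroke day 2 did not deviate together (-0.13 to 0.09), nor did those of sham and day 14 (-0.18 to 0.28).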

Additional observations from a re-analysis of the deposited data

Results flagged for a closer look

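Of 60 groups of 4 libraries checked, 3 had a library far from the others. The 95% limit used lets chance mark about 1 in 20 such groups. Ifitm3 in young sham mice was at 1115 CPM in replicate 1 and at 758 to 795 CPM in the others. Esyt2 at stroke day 14 was at 1609 CPM in replicate 4 and at 972 to 983 CPM in the others. Tmem252 at stroke day 2 was at 2147 CPM in replicate 1 and at 1205 to 1357 CPM in the others. CPM are relative to the summed counts of the genes tested.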

How the results depend on the processing

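No named gene changed direction in any alternative run. For runs on fewer libraries this was nearly fixed by the naming rule, which required groups that did not overlap. At day 2, 13 calls became 47 with DESeq2, 48 with no filter, 23 with a replicate block (numbers shared but not paired), 8 with only the compared groups, 7 with cells of at least 500 counts, 40 within either mitochondrial set, and 0 to 165 leaving out a library. At day 14 against sham, 0 became 2 with counts rounded up, 24 with no filter, 38 within the low set and 0 leaving out any library. From day 2 to day 14, 21 became 45 with DESeq2, 46 with no filter, 13 with only the compared groups and 40 with cells of at least 500 counts. The count was 0 within the high set and 6 to 30 leaving out a library. With replicate number as a block over all young groups, sham included, it was 24 (of the named, Ndnf alone lost its call). In aged mice 0 became 2 with no filter and 0 to 1 leaving out a library (1 without the male sham). In the other subtypes, thinned counts gave 331 calls at day 2 and 380 between times, and 12 and 20 came without EC2. Leaving out a library gave 196 to 467 at day 2, 0 to 2 at day 14 and 331 to 661 between times. Among cells of at least 500 counts, EC1 shares were 47.2% in young sham, 16.2% at day 2, 51.7% in aged sham, 13.1% in aged stroke at day 2, 50% in the single aged library at day 14 (9 of 18 cells) and 32.6% at young day 14. Leaving out a library moved the group means to 57.6 to 64.4%, 21.7 to 24.5%, 35.2 to 45.0% (young day 14), 62.4 to 69.7% and 20.0 to 22.4%. List medians against other subtypes moved by less than their spread over libraries, but those near 0 changed sign: caveolae from -0.03 to 0.10 (pooled cells) and 0.05 (500 counts), basement membrane from -0.02 to 0.11 and 0.07, and, pooled only, mural markers from -0.15 to 0.07 and proliferation from -0.03 to 0.28. The cause of these changes was not tested. Over single genes and settings, 12832 values kept their side of the threshold, 208 lost a call and 56 gained one. At EC1 depth the simulated data recovered 29.2% of 2-fold changes. The limit of 10 cells in place of 20 left out no library.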
